A study of Homo sapiens with 8 samples.

Results

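The regions described here are the peaks of the YAP antibody that touched no TEAD peak. They were taken from the YAP peak list of HuCCT1, an established line of human bile duct cancer (cholangiocarcinoma) cells. They were chosen by peak positions, keeping each YAP peak that shared no base with any TEAD1 or TEAD4 peak, on all chromosomes and scaffolds. They numbered 346 of the 454 YAP peaks (76.2%), and 51828 peaks were deposited over 5 lists. The lists came from chromatin immunoprecipitation and sequencing (ChIP-seq) with antibodies against YAP, TAZ (the product of WWTR1), TEAD1 and TEAD4, and from an immunoprecipitation of HA-YAP5SA, an HA-tagged YAP form whose inhibitory phosphorylation sites are mutated to alanine. Each antibody had 1 library of HuCCT1 chromatin. The labels name no treatment, and do not say how the tagged form was introduced or whether it was present in the cells used for the YAP antibody. The control libraries, titled GFP, IgG and input, were not analysed here. With 1 library per antibody, and with peaks that are not replicates of each other, no difference below has a replicate check or a test. Intervals in parentheses after a percentage are 95% binomial (exact), and count peaks as the only source of error. The sequencing depth of the libraries is unknown.

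YAP and TAZ are coactivators at the output of the Hippo pathway. They have no DNA-binding domain of their own and reach chromatin mainly through the TEAD factors, often at distal enhancers that also carry AP-1. The hg19 assembly, on which the coordinates are given, writes each centromere as a gap without sequence. The gaps are flanked by repeated satellite DNA, and repeat-rich sequence that could not be assigned a position is kept on separate scaffolds. The gene tables at hand follow another assembly, so peaks are given by position, without genes or sequences.

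The rule left few borderline cases. The members nearest to a TEAD peak lay 2 bp from a TEAD4 peak on chromosome 18 (18516748 to 18518053), 38 bp from one on chromosome 1 (564386 to 565495) and 41 bp from one on chromosome 4 (49640728 to 49642859). On the other side of the rule, the YAP peak with the smallest overlap shared 3 bp with TEAD4 on chromosome 16 (46407163 to 46409571). The next shared 125 bp, on chromosome Y (13859326 to 13859450), and 127 bp, on chromosome 14 (49972219 to 49972345). Those are the full widths of these narrow peaks, so they are not borderline. Only 16 of the 346 peaks had a TEAD1 or TEAD4 peak within 1 kb, 57 had one within 10 kb and 160 within 100 kb. A further 55 lay on scaffolds that held no TEAD1 or TEAD4 peak at all.

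The peaks without TEAD were gathered in a few places. Chromosomes 1 to 22, X and Y carried them in 21 cases, with none on chromosomes 3, 14 and 15, and 5 scaffolds carried them too. Chromosome 15 had no YAP peak at all, while the 8 on chromosome 3 and the 4 on chromosome 14 all met TEAD. The scaffold gl000199 of chromosome 9 held 53, chromosome 4 held 49, chromosome 16 held 47, chromosome X held 35 and chromosome 10 held 31. Together these 5 held 215 of the 346 (62.1%). The 4 chromosomes among them held 46.8% of the peaks without TEAD and 40.1% of the whole YAP list. They were picked for holding the most peaks without TEAD, so the higher share of these peaks is built in. All 53 YAP peaks on the scaffold gl000199, all 35 on chromosome X and all 7 on chromosome 6 were off TEAD, against 9 of 29 on chromosome 1, 1 of 6 on chromosome 12 and 0 of 8 on chromosome 3. Joined at distances of up to 1 Mb, the 346 peaks came down to 62 locations, while the 108 YAP peaks with TEAD came down to 74.

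Neighbouring peaks were often nearly continuous. Of the 320 pairs of neighbours on the same chromosome or scaffold, 89 were under 100 bp apart and 165 under 1 kb, with a median gap of 862 bp. A dense run was defined as at least 4 YAP or TAZ peaks whose neighbouring centres lay at most 25 kb apart. Runs on placed chromosomes held 224 of the 346 peaks (64.7%, interval 59.5 to 69.8%), scaffolds held 65 (18.8%, 14.8 to 23.3%), and 57 (16.5%, 12.7 to 20.8%) were dispersed. Runs and scaffolds thus held 83.5% (79.2 to 87.3%), against 28.7% (20.4 to 38.2%) of the 108 YAP peaks with TEAD and 70.5% of the whole YAP list. The same places held 71.2% of TAZ peaks, 0.118% of HA-YAP5SA, 0.152% of TEAD1 and 0.205% of TEAD4 peaks. Gathering there is thus shared with the TAZ list. TEAD1 and TEAD4 had only 58 and 25 peaks in these places, so few overlaps with them were possible there. Peaks of the YAP and TAZ lists themselves define the runs, which favours these lists. Seen from the location, 98.5% of YAP peaks on scaffolds, 88.2% in runs and 42.5% (34.0 to 51.4%) of dispersed ones were off TEAD. With YAP peaks up to 1 kb apart joined into 1 region first, 168 of 255 regions lay off TEAD, a lower share than among single peaks. Runs and scaffolds held 71.4% of the 168, and their share of all 255 was not computed.

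**Figure D1:**
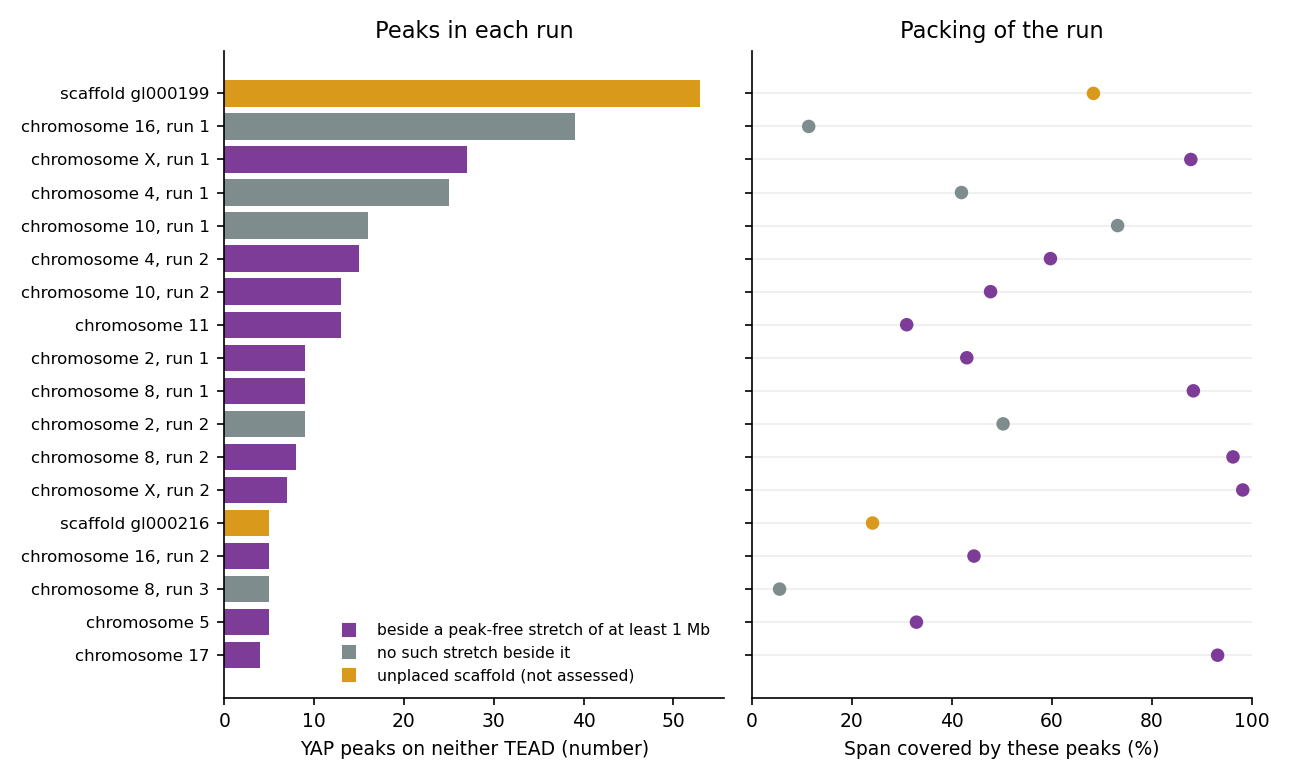
The 18 runs with at least 4 YAP peaks on neither TEAD. Bars give the number of these peaks in each run and points the percentage of the span from the first to the last of them that they cover, which goes from 5.57 to 98.2%. Purple runs lie beside a stretch of at least 1 Mb that holds no peak of any of the 5 lists, grey runs do not, and yellow marks unplaced scaffolds.

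The run with the most peaks filled most of the scaffold gl000199 that it spanned. Its 53 peaks lay between 34297 and 166429, covered 68.3% of that span and were 471 to 7122 bp wide (median 1196 bp). The second had another form. Its 39 peaks on chromosome 16 (58555042 to 58633252) were narrow, 127 to 390 bp wide with a median of 224 bp, were separated by a median of 1261 bp, and covered 11.4% of the span. That median width was the lowest among the 18 runs with at least 4 members, the next being 537 bp and the highest 3535 bp. Scores of the chromosome 16 peaks went from 95.2 to 374 (median 156). The score is the authors' value for each peak, on an unstated scale that starts at about 80 in the YAP list.

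The third run, on chromosome X (61682072 to 61723527), held 27 peaks that covered 87.8% of its span, with a median gap of 39 bp and a median width of 928 bp. The fourth, on chromosome 4 (49093263 to 49158714), held 25 peaks that filled 41.9% of its span and had a median width of 879 bp. The fifth, on chromosome 10 (42527209 to 42546231), held 16 peaks with a median score of 276, and they covered 73.2%. These 5 runs together held 160 of the peaks without TEAD (46.2%). In 15 of the 24 runs with such a peak, every YAP peak was off TEAD, and 18 of the 24 held no TEAD1 peak.

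The remaining scaffolds held few. There were 8 peaks on gl000216, of which 5 made a run (1252 to 14054, median score 93.2), 2 on gl000212, and 1 each on gl000214 and gl000224. The scaffold gl000199 held neither TEAD1 nor TEAD4 peaks, and gl000216 held 1 TEAD1 peak.

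Many runs ended at a long stretch of chromosome in which no antibody gave a peak. Of the 22 runs with a member on placed chromosomes, 13 lay directly beside a stretch of at least 1 Mb without a peak of any of the 5 lists. These 13 runs held 121 of the 224 peaks in runs (54.0%). The stretches were 3000.03 to 11146 kb long (median over runs 3271 kb), 11 in number, on 11 chromosomes. The runs next to none of them had at most 0.483 Mb of empty sequence beside them. Among all 38830 stretches between neighbouring peaks of the 5 lists, 237 (0.610%) were at least 1 Mb long. That share counts single stretches, while each run was judged by the longer of the stretches on its sides. The shares are therefore not like for like. On chromosome 8, 8 peaks (43820801 to 43838853) and 9 peaks (46838888 to 46856649) faced each other across 3000.03 kb without a peak and covered 96.2 and 88.3% of their spans. On chromosome X, 7 peaks (58563468 to 58582014, 98.2% covered) and the 27 described above faced each other across 3100.06 kb. Other runs ended at such a stretch on chromosome 2 (92268958 to 92326178, 9 peaks), chromosome 11 (51569631 to 51593455, 13 peaks), chromosome 17 (22244504 to 22263009, 4 peaks) and chromosome 4 (49633652 to 49659903, 15 peaks). The runs with 39 peaks on chromosome 16, 25 on chromosome 4 and 16 on chromosome 10 did not, with 0.0619, 0.136 and 0.108 Mb of empty sequence beside them.

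A second measure used the longest stretch without a TEAD1, TEAD4 or HA-YAP5SA peak on each placed chromosome. Inside it or within 1 Mb of it lay 146 of the 346 peaks without TEAD (42.2%, interval 36.9 to 47.6%). The share was 27.8% (19.6 to 37.2%) for the other YAP peaks and 38.8% for the whole YAP list, from which the first share differs little. Peaks on scaffolds, which have no such stretch, are included in these totals. On placed chromosomes alone the shares were 52.0% (45.9 to 57.9%) without TEAD, 28.0% (19.8 to 37.5%) with TEAD and 45.4% for the whole list. In runs the share was 55.4% for peaks without TEAD and 76.7% for the 30 peaks with TEAD. Among dispersed peaks it was 38.6% (26.0 to 52.4%) and 9.09% (3.73 to 17.8%). The other lists had 30.7% of TAZ peaks there, 2.01% of HA-YAP5SA, 1.32% of TEAD1 and 1.27% of TEAD4. The HA-YAP5SA, TEAD1 and TEAD4 lists define the stretch, so their peaks can lie only in its flanks. Low shares for these lists are therefore partly built in. Since the stretch holds no TEAD peak, a YAP peak inside it is off TEAD by construction, and the share is a description of where the regions lie. It was 29.2% when YAP peaks up to 1 kb apart were joined.

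On placed chromosomes, 157 of 281 peaks without TEAD (55.9%) had no TEAD1 peak centred within 100 kb, as had 169 of the 388 peaks of the whole YAP list there (43.6%). The median number of TEAD1 peaks within 1000 kb was 9 (interquartile range 2 to 15) for peaks without TEAD and 27 (10 to 42) for those with TEAD. Most YAP peaks with TEAD lie on a TEAD1 peak, so the rule sets much of the first difference. To the count within 1000 kb such a peak adds little, and that difference varied with location. In runs the median was 9 (2 to 13.25) without TEAD and 7.5 (2 to 23) with TEAD. Among dispersed peaks it was 12 (3 to 24) and 36 (23 to 45). These values are given as a description. The distance to the nearest TEAD1 peak had a median of 151 kb in runs and 133 kb for dispersed peaks, and to the nearest TEAD4 peak 139 and 311 kb.

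**Figure D2:**
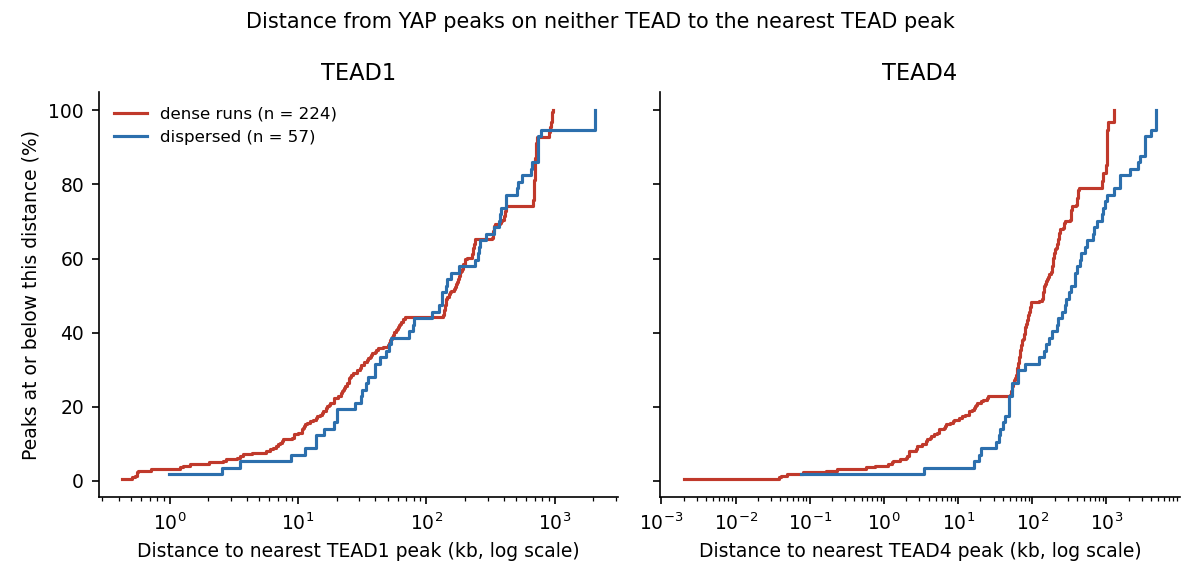
Cumulative percentage of YAP peaks on neither TEAD by the distance to the nearest TEAD1 (left) and TEAD4 (right) peak, in kb on log axes, for the 224 peaks in runs and the 57 dispersed peaks. For TEAD1 the medians are close (151 kb in runs, 133 kb dispersed), while the upper quartiles are 678 and 418 kb. For TEAD4 the lower quartiles are alike (53.3 and 53.8 kb), and the dispersed peaks lie farther away at the medians, 139 and 311 kb.

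Peaks without TEAD were wide. Their median width was 731 bp (interquartile range 348 to 1366 bp, widest 31980 bp), against 266 bp (206 to 759 bp) for the other YAP peaks. The width followed the location: 736 bp in runs, 971 bp on scaffolds and 320 bp (245 to 531 bp) when dispersed. Within runs, the 30 YAP peaks with TEAD were at least as wide, with a median of 859 bp, and among dispersed peaks those with TEAD had 233 bp. By width, 52.8% of YAP peaks under 300 bp were off TEAD, 85.7% of those from 300 to under 1000 bp, and 83.8% of wider ones. A wide peak touches another more easily, so the rule by itself would favour narrow peaks. All 346 together covered 463 kb.

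Scores separated the groups less. The median score was 146 (99.4 to 234) without TEAD and 130 (100.0 to 274) with TEAD. The share off TEAD was 77.2, 70.8, 81.4 and 75.4% across 4 equal classes of YAP score, from lowest to highest. By location the median score of peaks without TEAD was 164 in runs, 133 on scaffolds and 94.9 when dispersed. In runs, the YAP peaks with TEAD scored higher, with a median of 249.

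**Figure D3:**
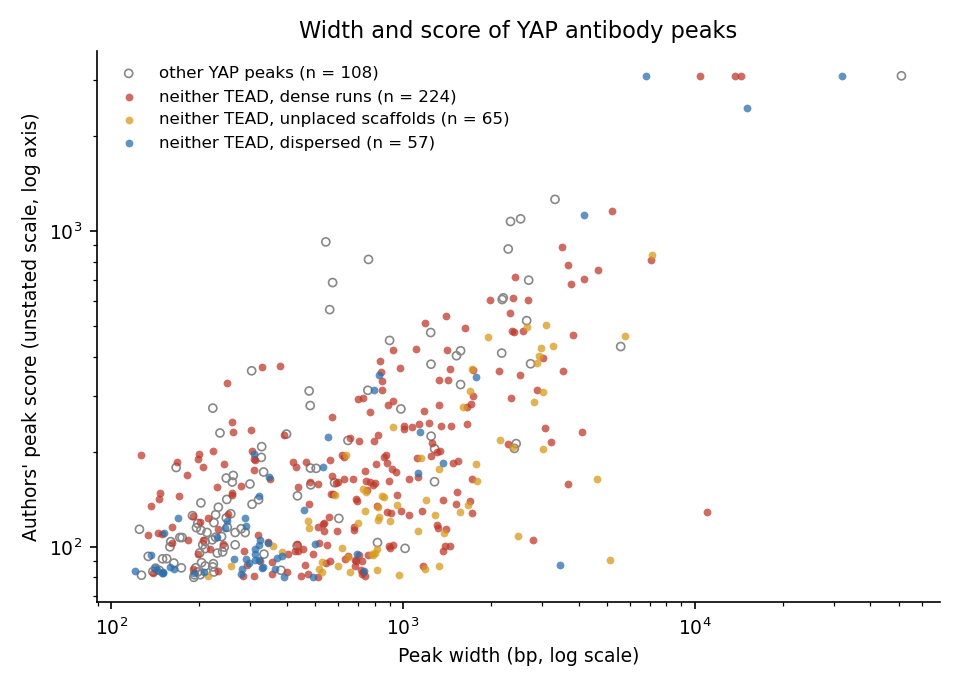
Width against the authors' score for the 454 YAP peaks, both on log axes, with 1 point per peak. Colours mark where the 346 peaks without TEAD lie, and open circles mark the other 108. Most dispersed peaks without TEAD sit at the lower left, and 5 peaks without TEAD share the highest score of 3100 at widths from 6793 to 31980 bp.

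Of the 10 highest YAP scores, 8 belonged to peaks without TEAD, as did 34 of the 50 highest, which is near the 76.2% of the list as a whole. At the highest score, 3100, they were 5 of 6. Those 5 lay on chromosome Y (58870601 to 58902580, 31980 bp wide), chromosome 17 (22247311 to 22261714, 14404 bp), chromosome 2 (92312485 to 92326178, 13694 bp), chromosome 10 (42386890 to 42397295, 10406 bp) and chromosome 7 (61967156 to 61973948, 6793 bp). The peak on chromosome Y ended 5 bp before the next one (58902586 to 58917656, score 2454) and began 75 bp from a TEAD4 peak. That next peak was also among the 10 highest-scoring peaks without TEAD. The rest of these 10 were on chromosome 8 (43821289 to 43826508 with a score of 1154 and 46853128 to 46856649 with 887), chromosome 6 (58776004 to 58780172, score 1125) and the scaffold gl000199 (103835 to 110956 with a score of 842). Those scoring 887 and 842 ranked 14 and 16 in the whole YAP list. The 10 peaks without TEAD were 3522 to 31980 bp wide, 5 lay in runs, 7 lay within 1 Mb of the longest stretch defined above and 2 overlapped TAZ. None overlapped HA-YAP5SA.

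Tagged YAP5SA was almost absent from these regions. Only 1 of the 346 overlapped an HA-YAP5SA peak (0.289%, interval 0.00732 to 1.60%), against 53 of the 108 YAP peaks with TEAD (49.1%, 39.3 to 58.9%) and 11.9% of the whole YAP list. The HA-YAP5SA list itself held only 39 peaks on neither TEAD, so few overlaps were possible, and 1 of those 39 met a YAP peak of any kind. The shared site was at the start of chromosome 5. The YAP peak (10001 to 11783, score 343.7) and the HA-YAP5SA peak (10002 to 11787, score 890) had nearly the same bounds there, and the HA-YAP5SA score was the third highest of its list. Its nearest TEAD1 peak was 35.3 kb away. By location, no run held an HA-YAP5SA peak, and the one nearest to a YAP peak in a run was 9.45 kb away. In runs HA-YAP5SA therefore met 0 of 224 peaks without TEAD and 0 of 30 with TEAD. These counts were set by the absence of HA-YAP5SA peaks from runs, so their exact upper limits (1.63 and 11.6%) add nothing. Among dispersed peaks it met 1 of 57 without TEAD (1.75%, 0.0444 to 9.39%) and 52 of 77 with TEAD (67.5%, 55.9 to 77.8%).

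**Figure D4:**
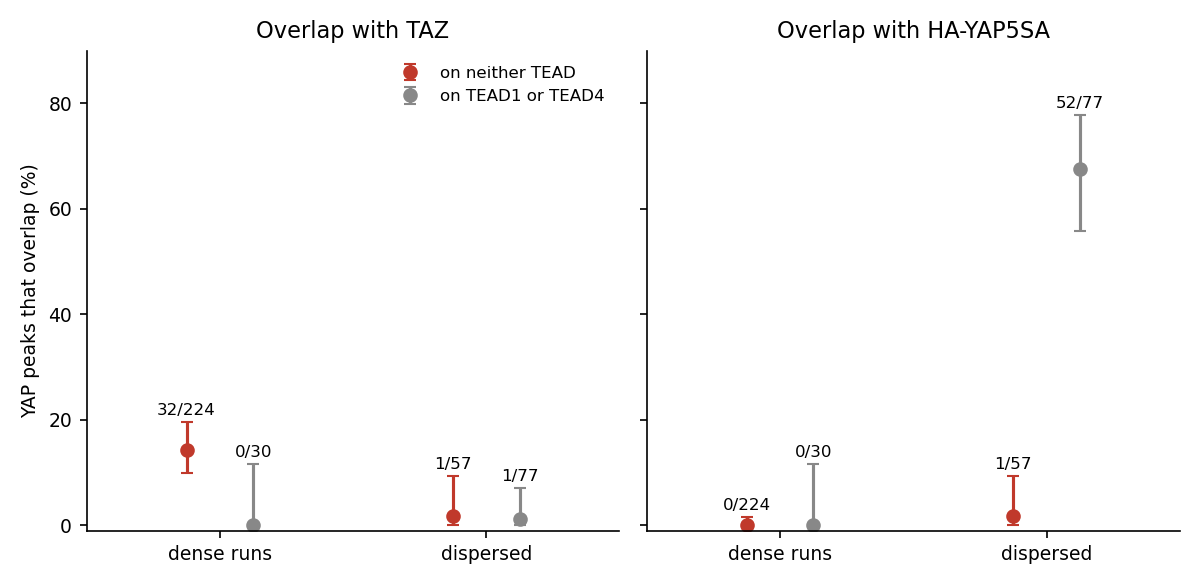
Percentage of YAP peaks that overlap a TAZ peak (left) or an HA-YAP5SA peak (right), in runs on placed chromosomes and dispersed, for peaks on neither TEAD (red) and on TEAD1 or TEAD4 (grey). Bars are exact 95% binomial intervals over peaks, and the numbers give overlapping and all peaks. HA-YAP5SA met 52 of 77 dispersed peaks with TEAD and at most 1 peak in each other group, and TAZ met 32 of 224 peaks in runs without TEAD. No run held an HA-YAP5SA peak.

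TAZ is the paralogue of YAP. Of the 346 peaks without TEAD, 47 (13.6%, interval 10.2 to 17.7%) overlapped a TAZ peak, against 1 of the 108 with TEAD (0.926%, 0.0234 to 5.05%) and 10.6% of the whole YAP list, which lies within the interval of the first share. From the side of TAZ, 34 of its 153 peaks (22.2%) lay on a YAP peak without TEAD and 1 on another YAP peak. The share varied with location. In runs TAZ met 32 of 224 peaks without TEAD (14.3%, 9.98 to 19.6%), 0 of 30 with TEAD (0%, 0 to 11.6%) and 12.6% of all YAP peaks. On scaffolds it met 14 of 65 without TEAD (21.5%) and 21.2% of all YAP peaks. Among dispersed peaks it met 1 of 57 without TEAD (1.75%), on chromosome 13 (110076408 to 110076727, score 91.1), and 1 of 77 with TEAD (1.30%). Runs were built from both lists, which favours such a split by location. With centres within 500 bp in place of a shared base, the TAZ share was 5.25%, and with YAP peaks up to 1 kb apart joined it was 8.93%.

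The sites with TAZ were few. Chromosome X had 23 of the 47, scaffold gl000199 had 14, chromosome 17 had 4, chromosome 8 had 2, and chromosomes 5, 13, 16 and Y had 1 each. In the chromosome X run with 27 peaks, 19 overlapped TAZ, and 15 of the 16 TAZ peaks there lay on one. Runs on chromosomes 2, 4, 10 and 11 had no TAZ overlap although they held 9 to 25 peaks each. The run of 39 narrow peaks on chromosome 16 had 1. TAZ peaks on these regions included 7 of the 10 highest TAZ scores, the first being 58566358 to 58577584 on chromosome X (score 1392). Their median width was 1937 bp, against 627 bp for other TAZ peaks. The YAP peaks with TAZ were also wider than those without it, 1261 against 689 bp, and had a median score of 239.8 against 137. A wide peak meets another more easily, so the width differences of both lists are partly built in.

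The 57 dispersed peaks were mostly narrow and low in score. Of them 42 were under 500 bp wide and 30 scored under 100, with a median score of 94.9 (interquartile range 85.9 to 145), where the 77 dispersed peaks with TEAD had 111 (94.8 to 173). The 10 dispersed peaks with the highest scores were those on chromosomes Y, 7 and 6 given above, followed by 2 peaks on chromosome 9 (66970954 to 66971778 with a score of 349 and 69710609 to 69711401 with 313), the start of chromosome 5 and chromosome 7 (61974607 to 61975749, score 231). The last of the 10 were on chromosome 20 (29829289 to 29829843) with a score of 223 and chromosome 4 (167501345 to 167501653) with 197. The chromosome 7 peaks lay within 1 kb of each other and were too few to make a run.

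Of the dispersed peaks, 22 lay inside or within 1 Mb of the longest stretch without TEAD or HA-YAP5SA peaks, with a median width of 422 bp and a median score of 104. The other 35 were spread over 18 chromosomes, had a median width of 296 bp and a median score of 92.2, and reached at most 1783 bp and a score of 349. Among these 35, one of the higher scores was on chromosome 4 (167501345 to 167501653), 309 bp wide and 144 kb from the nearest TEAD1 peak. Another was on chromosome 7 (945133 to 945454, score 145), 3.51 kb from TEAD1. The chromosome 7 case was chosen after its value was seen.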

How the data were processed

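Chromatin of HuCCT1 cells was cross-linked, sonicated, precipitated and sequenced, per the labels' protocols. The submitters' processing notes name Bowtie2 and the build hg19. Peak names begin with MACS, per the file contents. What version, threshold and control the caller used is not given in the sources used here, for any list. Each deposited list comes from 1 library, and its score is the authors' value per peak, on an unstated scale, used only within a list. Starts in lists without a header were taken as counted from 0 and raised by 1. Samples were grouped by title.

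Overlap meant at least 1 shared base. Medians, quartiles and exact Clopper-Pearson intervals were computed with Python 3.11.15, NumPy 2.4.6, pandas 2.3.3 and SciPy 1.17.1, and figures with matplotlib 3.10.9. The overlap, run and stretch steps were checked on simulated data. The members, the run definition and the lists were chosen with earlier results of these data known. Regions named were the 10 highest-scoring members, the 10 highest among dispersed members, members with HA-YAP5SA, and the 5 largest runs and scaffolds. The 3 members nearest to a TEAD peak and the 3 other YAP peaks sharing the fewest bases with one were also named. Other runs and the peak-free stretches beside runs were added afterwards. Comparisons with genes and sequence needed an hg19 genome and were not run.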

Additional observations from a re-analysis of the deposited data

How the results depend on the processing

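Of 71 recomputed values for 7 results, 54 stayed within 1.5 times the main count or within the 95% counting interval of the main value, and 17 did not. With the YAP list limited to scores of its median or more, 178 lay off TEAD, 91.6% of them in runs or on scaffolds and 19.7% on TAZ, with a median width of 1092 bp and a median score of 231. The smaller count and higher score follow from the score limit. The location and TAZ shares over all YAP peaks within this limit were not computed. With YAP peaks up to 1 kb apart joined, 168 of 255 regions lay off TEAD, 71.4% of them in runs or on scaffolds. Of these 168, 8.93% lay on TAZ, the median score was 129, and 29.2% lay within 1 Mb of the longest stretch. That last share was 52.9% on chromosomes 1 to 22 and X, 49.8% without the scaffold gl000199 and 35.8% at 0.5 Mb. The TAZ share was 5.25% with centres within 500 bp and 19.7% with peaks within 1 kb. The median width was 660 bp without gl000199 and 812 bp without the chromosome 16 run of 39 peaks, which were left out after seeing the data. The HA-YAP5SA share stayed between 0.265 and 0.595% over 9 alternatives. No paired analysis was possible because each antibody has 1 library. The depth of the libraries and the signal of the input, IgG and GFP libraries in these regions are not known here, so how much signal they had there was not tested.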
